A study of Mus musculus with 14 samples.

Results

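The mitotic genes described here are 43 named genes whose products run or carry out cell division: CDK1 and its cyclins, the mitotic kinases, kinesins, kinetochore proteins, spindle proteins, condensins and other chromosome proteins, and the cytokinesis machinery. They were chosen by symbol. Each gene was read from the probe set that names it alone and, where there were several, from the one with the highest mean over all 14 arrays, which mattered for Top2a only. No such probe set was matched for Ccnb1, so 42 of the 43 were measured, among 19937 genes on the array. Of those 42, 40 passed the filter on dim genes and were among the 13641 genes tested. To pass, a gene needed a log2 value above 6.76 (the table's 40th percentile) on 2 or more arrays. Ttk and Hmmr did not pass it, and 22 of the 40 passed only through their thymus arrays.

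All samples held sorted T cells of C57BL/6 mice, either wild type (WT) or ENK KO by their labels. The labels leave the name ENK unexplained. The title of the series speaks of Engrailed-2, the homeobox protein of the gene En2. The sources used here do not give how the ENK KO allele was made or in which cells it is lost. CD4+CD8+ cells came from the thymus of 3 WT mice, all 7 months old (female replicate 7, male replicates 32 and 38), and of 2 ENK KO mice, a 2-month-old female (replicate 1) and a 7-month-old male (replicate 29). CD8+ cells came from the spleen of 4 WT mice, all 7 months old (replicate 22 labelled female, replicates 34, 37 and 40 male), and of 5 ENK KO mice. The latter were 2-month-old females (replicates 3 and 6) and males of 9 (replicate 25), 6 (replicate 28) and 7 months (replicate 31). Each sample was put on 1 Affymetrix array, and the question was how the genotypes differ in each population. No label says in so many words that samples are separate animals, and p-values cover the spread between these 14 samples.

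In a dividing cell, CDK1 bound to a cyclin drives entry into mitosis, the Polo-like and Aurora kinases build the spindle, and the checkpoint kinases hold the cell until every chromosome is attached. CDC20 then activates the anaphase-promoting complex, which destroys the cyclins, and a contractile ring splits the cell. Most of these genes are transcribed late in the cell cycle, so their RNA is a common readout of how many cells in a sample are cycling. In the thymus, cells divide rapidly as they become CD4+CD8+ and then stop and rest, while most CD8+ cells of an unchallenged spleen rest in G0. In bulk RNA, fewer cycling cells and less RNA per cycling cell cannot be told apart.

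Some arrays and values stood apart before any comparison. The library labelled spleen ENK KO replicate 28 went against its label: its Cd4 was 12.20, against at most 6.92 on the other spleen arrays, and its Cd8a was 6.78, against at least 12.06. Its Foxp3, the regulatory T cell factor, was 9.87. Counts and values of the spleen ENK KO group are given with it, and without it where they change. On spleen WT replicate 22 the X-inactivation transcript Xist was 5.90, while it was 12.36 and 12.55 on the female ENK KO spleen arrays, against the female label. En2 did not check the genotype: it was 6.01 on every thymus WT array and 6.01 and 6.14 on the thymus ENK KO arrays, and 6.19 to 6.93 in WT against 6.12 to 7.87 in ENK KO spleen. Array medians over all probe sets lay between 7.14 and 7.25. Values identical to the last digit made up a median of 27.0% of probe sets between thymus arrays and 6.64% between spleen arrays, but 0% in each of the 45 pairs of a thymus with a spleen array. That is the pattern left when each tissue is summarised on its own, which the sources used here do not state. Differences between tissues therefore set values of what may be separate normalizations against each other, and no p-value of a single gene is given for the difference between tissues.

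The mitotic genes lay highest in the thymus, where ENK KO arrays were mostly above WT arrays, and lower in the spleen, where the genotypes lay close together. The map of all 42 genes shows this by array. Over the 42 genes, the median difference of WT spleen from WT thymus was -1.35 on the log2 scale, and that of ENK KO spleen from ENK KO thymus was -1.62. In the thymus the median difference of ENK KO from WT was 0.36, and in the spleen it was 0.02. Racgap1 was the exception to the order of the tissues and lay higher in the spleen.

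**Figure D1:**
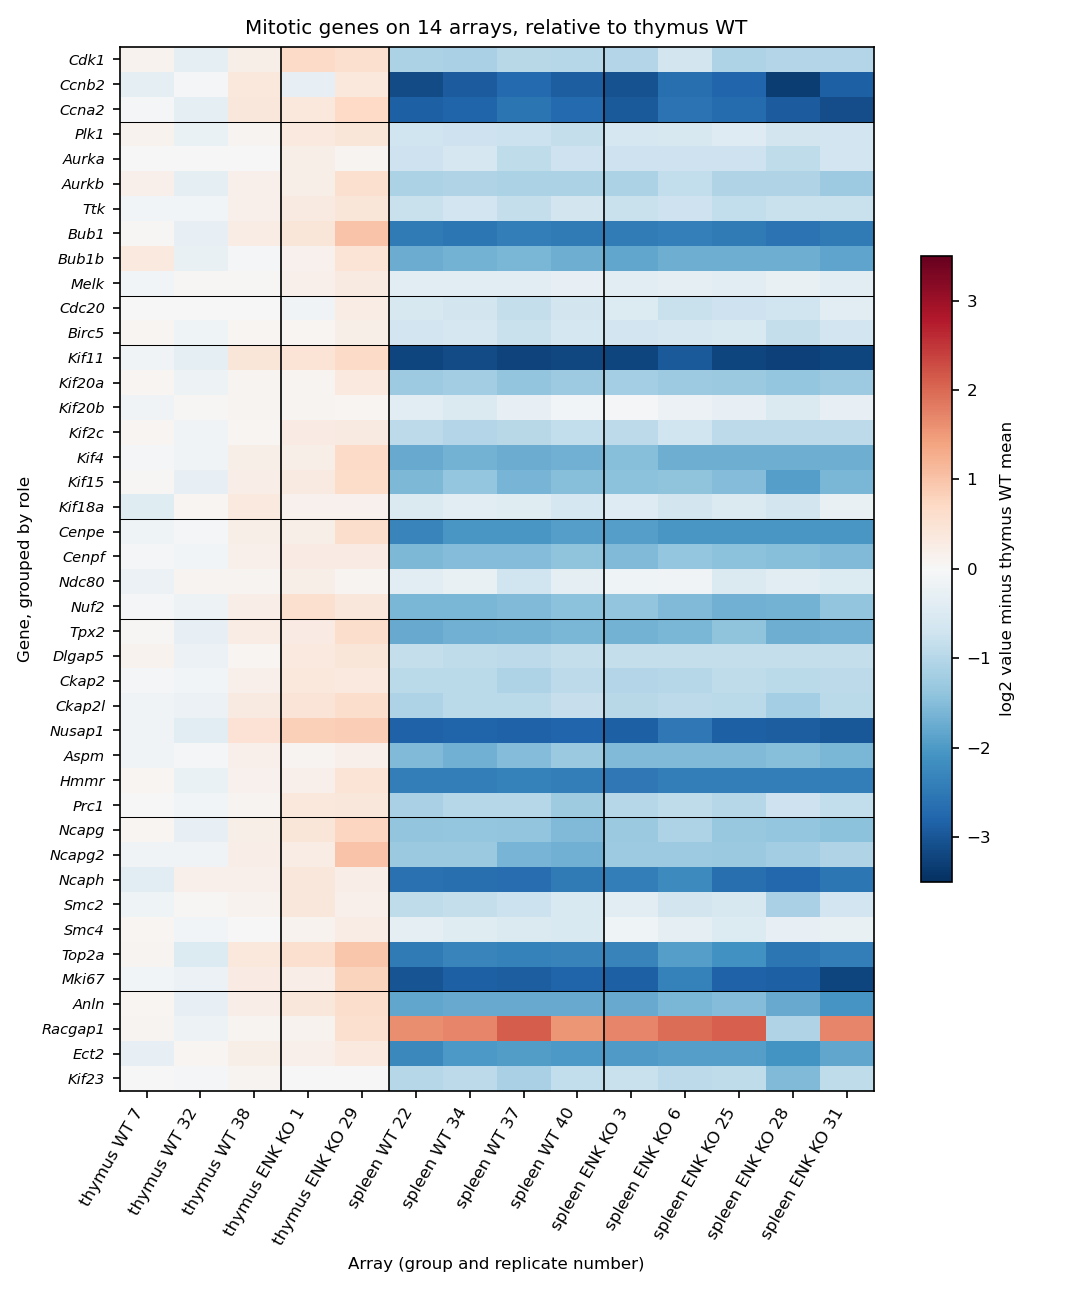
Map of the 42 measured mitotic genes (vertical axis, grouped by role) on the 14 arrays (horizontal axis, by group and replicate number). Colour is the log2 value minus the mean of the 3 thymus WT arrays. Thymus ENK KO columns are mostly red, spleen columns are blue in every row but Racgap1, and Racgap1 is red on every spleen array except ENK KO replicate 28.

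Many late cell cycle genes share promoter elements: the cell cycle genes homology region (CHR), to which MuvB-containing complexes bind, and CCAAT boxes, bound by NF-Y. Genes of DNA replication more often carry sites for E2F factors. RefSeq promoter windows (GRCm38.p6, 250 bases before to 50 after the start) were available for 37 of the 43 genes, as 39 windows. They were searched on both strands for the CHR letters TTTGAA, for CCAAT, and for the E2F-like letters TTCCCGC and TTGGCGC, the last of which can overlap a CCAAT on the other strand. TTTGAA within -60 to 30 bases of the start was held by 23 of the 39 windows (59.0%), against 2.82% of the 13600 windows of tested genes and 4.85% of all 32851 windows. CCAAT anywhere in the window was held by 27 (69.2%), against 36.8% and 37.4%, and at least 2 copies by 41.0%, against 13.3% and 11.7%. Both TTTGAA near the start and a CCAAT were held by 18 (46.2%), against 1.32% and 2.08%. E2F-like letters were held by 10 windows (25.6%), against 11.1% and 6.81%. In the 34 windows found for a comparison list of DNA replication genes the order was the other way round. TTTGAA near the start was held by 5.88%, and E2F-like letters, counted anywhere in the window, by 50%. Anywhere in the window, TTTGAA was held by 11.8% of these 34 and by 76.9% of the 39. CCAAT was held by 52.9% of the 34. The 48 windows of a second mitotic list were more like the 39. Among them 37.5% held TTTGAA near the start, 75% a CCAAT, 43.8% at least 2 copies and 27.1% both strings. A match is a string of letters and not a measured binding site.

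Bases -110 to 30 around the start are printed for 6 genes on which the results turn, 5' to 3' on the gene's strand, with CHR and CCAAT letters of either strand in capitals. Cdk1 (chr10:69352883-69353022, minus strand), Ccnb2 (chr9:70421525-70421664, minus strand), Top2a (chr11:99024160-99024299, minus strand) and Kif11 (chr19:37376272-37376411, plus strand) share a layout. They hold CCAAT letters upstream of the CHR letters nearest the start. How often this layout occurs among the genes was not counted. Racgap1 (chr15:99651627-99651766, minus strand) is shown because it has the same layout but the opposite order of tissues. Nusap1 (chr2:119618188-119618327, plus strand) is shown because it had the largest thymus difference and held neither string.
Cdk1: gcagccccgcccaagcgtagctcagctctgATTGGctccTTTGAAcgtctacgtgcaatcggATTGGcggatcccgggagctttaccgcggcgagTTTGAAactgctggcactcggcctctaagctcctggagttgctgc
Ccnb2: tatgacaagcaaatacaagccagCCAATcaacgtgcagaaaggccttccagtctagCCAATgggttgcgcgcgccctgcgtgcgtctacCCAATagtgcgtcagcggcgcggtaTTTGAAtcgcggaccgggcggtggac
Top2a: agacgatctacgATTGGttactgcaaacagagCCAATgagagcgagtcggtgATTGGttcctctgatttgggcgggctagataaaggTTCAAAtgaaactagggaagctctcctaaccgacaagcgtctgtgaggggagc
Kif11: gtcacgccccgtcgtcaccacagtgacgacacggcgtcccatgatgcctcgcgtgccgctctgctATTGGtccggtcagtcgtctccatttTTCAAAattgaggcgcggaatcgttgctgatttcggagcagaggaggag
Racgap1: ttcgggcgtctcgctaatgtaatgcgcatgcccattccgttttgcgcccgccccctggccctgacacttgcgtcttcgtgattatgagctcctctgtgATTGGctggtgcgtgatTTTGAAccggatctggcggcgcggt
Nusap1: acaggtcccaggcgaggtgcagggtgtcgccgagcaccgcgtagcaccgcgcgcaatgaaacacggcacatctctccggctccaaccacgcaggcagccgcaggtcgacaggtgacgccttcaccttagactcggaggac

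Genes with and without the letters differed by similar amounts. Measured genes with TTTGAA near the start (22) had a median thymus difference of 0.36 and a median WT spleen difference from thymus of -1.44, and those with a window but without these letters (14) had 0.33 and -1.25. The ranges overlapped almost wholly, from -0.01 to 0.77 and from 0.14 to 0.84 in the thymus.

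In the thymus no mitotic gene passed the test between ENK KO and WT, but nearly all lay higher in ENK KO. The test was limma with Benjamini-Hochberg adjustment over all 13641 genes, at an adjusted p under 0.05, with the spread estimated over all 4 groups. It called 0 of the 40 genes, and 0.0147% of all genes (2 genes, both higher). Of the 40, 39 differences were above 0, against 44.9% of all genes, and Kif23 was the exception at -0.01. At an unadjusted p under 0.05, 27 of the 40 were higher, against 1.8% of all genes, and 0 were lower, against 1.73%. The spread behind these p-values includes the spleen arrays, where 26 of the 42 measured genes have both group means under 6.76. These p-values and the SEs given for single genes therefore rest in part on low spleen values. Of all 42 measured, 28 had both ENK KO arrays above every WT array, against 4.04% of all genes, and 0 had both below, against 5.21%. The median difference over the 42 was 0.36 with a range from -0.01 to 0.84, while the median over all genes was 0. With each tissue fitted alone, 11 were higher at an unadjusted p under 0.05, and without ENK KO replicate 29 there were 14. The genes were picked with results of these arrays known, so the counts describe these 5 arrays.

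CDK1 is the kinase that triggers mitosis, and its RNA was 8.21, 7.75 and 8.27 on the thymus WT arrays (replicates 7, 32 and 38, in this order throughout) and 8.74 and 8.64 on the ENK KO arrays (replicates 1 and 29). The groups did not overlap, and the difference was 0.61 (SE 0.15, limma Benjamini-Hochberg adjusted p = 0.502). Its S and G2 phase cyclin Ccna2 stood at 9.38, 9.08 and 9.82 in WT and 9.79 and 10.11 in ENK KO, so ENK KO replicate 1 lay below the highest WT array. The mitotic cyclin Ccnb2 did not separate the genotypes, with 10.28, 10.51 and 10.97 against 10.30 and 10.96 and a difference of 0.04 (SE 0.24).

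Among the mitotic kinases, Bub1 of the spindle checkpoint had the largest difference. Its values were 7.90, 7.58 and 8.13 in WT and 8.28 and 8.86 in ENK KO, a difference of 0.70 (SE 0.15, limma adjusted p = 0.417). Plk1, the Polo-like kinase of spindle assembly and mitotic exit, was 8.36, 8.02 and 8.35 in WT and 8.58 and 8.67 in ENK KO (0.39, SE 0.094, limma adjusted p = 0.536). For both kinases the ENK KO arrays lay above every WT array. Melk, a kinase that is a common proliferation marker, was 6.67, 6.79 and 6.80 in WT and 6.93 and 7.06 in ENK KO (0.24, SE 0.056, limma adjusted p = 0.487). Its value on WT replicate 7 lies under 6.76. Aurkb, the kinase of the chromosomal passenger complex, differed by 0.38, and Aurka of the spindle poles by 0.14. The checkpoint kinase Bub1b overlapped, since WT replicate 7 (8.41) lay above ENK KO replicate 1 (8.23). Ttk, the kinase at the top of the checkpoint, was dim, at 6.13 to 6.40 in WT and 6.54 and 6.66 in ENK KO.

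The activator of the anaphase-promoting complex and the survivin subunit of the passenger complex were the least separated role. Cdc20 was 8.38, 8.39 and 8.37 in WT and 8.25 and 8.63 in ENK KO, with 1 ENK KO array below and 1 above all WT arrays. Birc5 (survivin) differed by 0.14 and overlapped.

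The kinesins, motors that move along microtubules, had a median difference of 0.30 over the 7 genes. Kif11, which pushes the spindle poles apart, was 9.20, 8.99 and 9.73 in WT and 9.79 and 9.97 in ENK KO (0.58, SE 0.16, limma adjusted p = 0.906). The highest WT array, replicate 38, lay just below the lower ENK KO array. Kif15, which can stand in for Kif11, differed by 0.49, Kif4 (a chromosome-arm motor) by 0.44 and Kif2c (a microtubule-depolymerising kinesin) by 0.30. Kif4 lay under 6.76 on WT replicates 7 and 32 (6.73 and 6.69), so the size of its difference is only approximate. Kif20a and Kif20b, both needed late in division, differed by 0.23 and 0.08, and Kif18a, which limits chromosome oscillation, by 0.14.

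At the kinetochore, the site where chromosomes attach to microtubules, Nuf2 was 7.19, 7.05 and 7.46 in WT and 7.81 and 7.63 in ENK KO, a difference of 0.49 without overlap. Its partner in the same complex, Ndc80, was 6.84, 7.16 and 7.16 against 7.25 and 7.16, a difference of 0.15 with overlap. Cenpe, the kinesin-like motor of the kinetochore, differed by 0.40 and Cenpf by 0.29.

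Nusap1, a microtubule-bundling protein of the spindle, had the largest difference of all. It was 8.58, 8.31 and 9.21 in WT and 9.53 and 9.55 in ENK KO, 1.79-fold higher (0.84, SE 0.19, limma adjusted p = 0.487). Dlgap5 (HURP), which stabilises kinetochore fibres, had the smallest p: 7.71, 7.38 and 7.65 in WT against 7.92 and 8.02 (0.39, SE 0.076, limma adjusted p = 0.260). Both separated the genotypes without overlap. Ckap2, a spindle-associated protein, was 6.99, 6.97 and 7.23 in WT and 7.44 and 7.39 in ENK KO (0.35, SE 0.077, limma adjusted p = 0.417). Its relative Ckap2l differed by 0.53, Tpx2, the activator of Aurora A on the spindle, by 0.44, and Prc1, which bundles the central spindle, by 0.38. Aspm, a spindle pole protein, differed by 0.13 and overlapped. Hmmr was dim in WT, at 6.21 to 6.59, and 6.63 and 6.93 in ENK KO.

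Of the condensins, which compact chromosomes, Ncapg was 7.36, 7.00 and 7.48 in WT and 7.70 and 8.02 in ENK KO (0.58, SE 0.14, limma adjusted p = 0.502). Ncapg2 of the other condensin complex was 7.15, 7.15 and 7.49 against 7.54 and 8.26, so that most of its difference of 0.63 came from ENK KO replicate 29. The core ATPases shared by both complexes moved less, Smc2 by 0.29 and Smc4 by 0.20, and Ncaph by 0.31. Top2a, the topoisomerase that untangles sister chromatids, was 9.13, 8.54 and 9.40 in WT and 9.60 and 9.99 in ENK KO, a difference of 0.77 (SE 0.22, limma adjusted p = 0.906). Mki67, the Ki-67 antigen that coats mitotic chromosomes, was 9.89, 9.78 and 10.27 against 10.20 and 10.76 and overlapped (0.50, SE 0.21).

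The cytokinesis genes were split. Anln (anillin, a scaffold of the contractile ring) differed by 0.52 without overlap, and Ect2, the exchange factor that switches on RhoA at the cleavage plane, by 0.26 with overlap. Racgap1 and Kif23 form the centralspindlin complex together. Racgap1 was 8.20, 7.92 and 8.20 in WT and 8.24 and 8.68 in ENK KO, a difference of 0.35 with an SE of 0.70 that falls to 0.19 without spleen array 28. Kif23 was 8.84, 8.79 and 8.95 against 8.84 and 8.85, within the WT range.

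**Figure D2:**
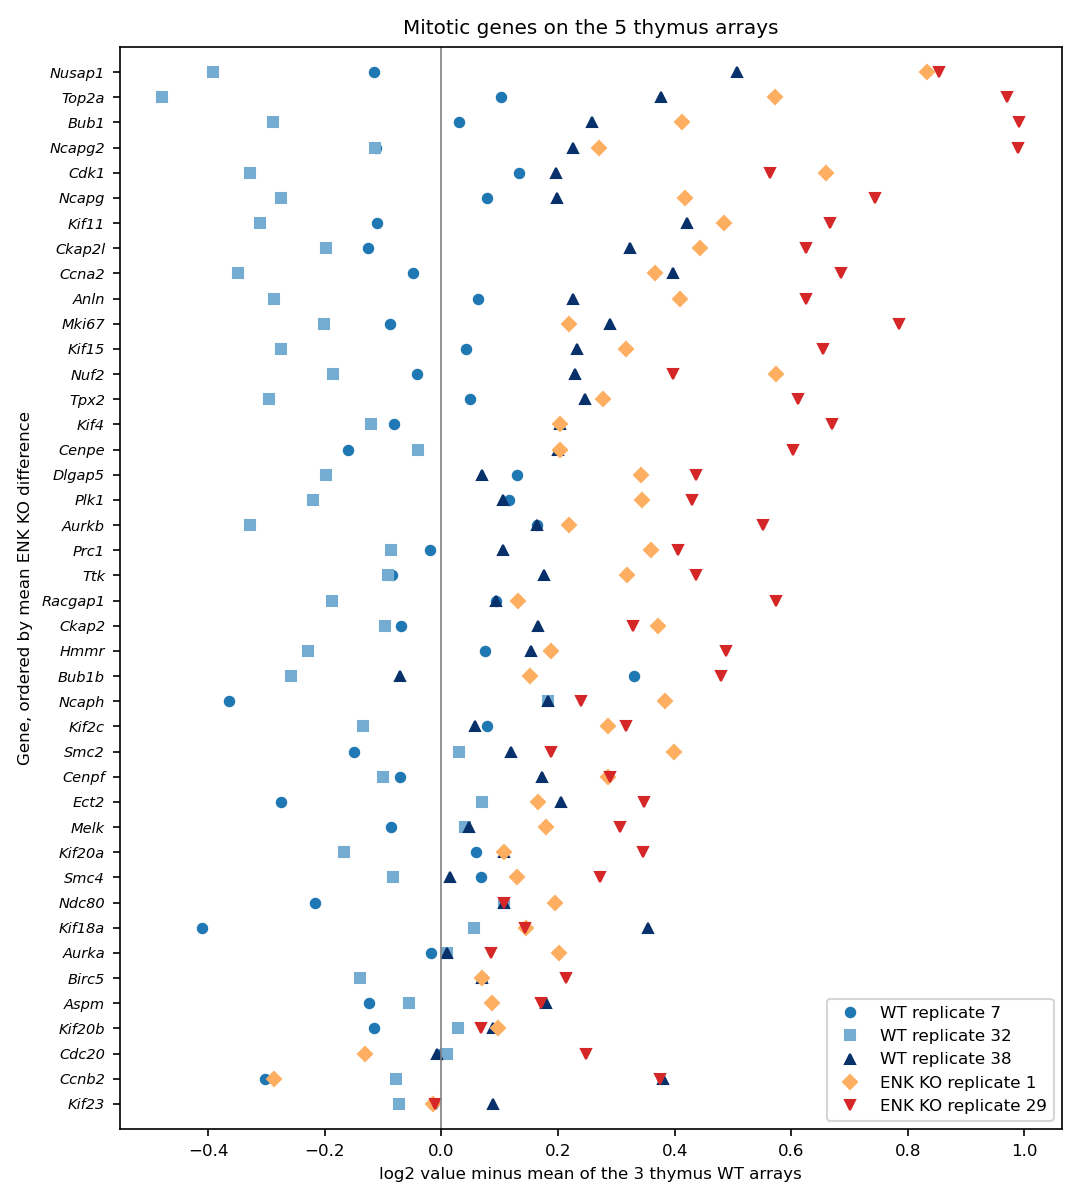
Values of the 42 measured mitotic genes (vertical axis, ordered by mean ENK KO difference) on the 5 thymus arrays, as the log2 value minus the mean of the 3 WT arrays (horizontal axis). Each point is 1 array. ENK KO replicate 29 (red triangles) lies furthest right for 30 genes, and WT replicate 38 (dark triangles) is the highest WT array for 36.

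The 5 thymus arrays differed among themselves within each genotype as well. Set against the WT mean, the median over the 42 genes was -0.03 on WT replicate 7, -0.14 on WT replicate 32 and 0.18 on WT replicate 38, and 0.27 on ENK KO replicate 1 and 0.43 on ENK KO replicate 29. The median over all genes was 0 on each of these arrays. ENK KO replicate 29 was the highest of the 5 for 30 genes (23.3% of all genes have their highest value there), ENK KO replicate 1 for 8 and WT replicate 38 for 4. WT replicate 32 was the lowest for 30 and WT replicate 7 for 11. In the all-gene shares for the thymus, tied arrays all count as highest, while a tied value never counts as above another. Between thymus arrays a median of 22.1% of all genes tested were tied, against 2.38% of the 42. The all-gene shares are therefore not wholly like for like. ENK KO replicate 29 lay above every WT array for 36 genes (14.4% of all genes), and ENK KO replicate 1 for 30 (20.5%). The step from WT replicate 32 to WT replicate 38, both 7-month-old males, had a median of 0.28. The step from WT replicate 38 to ENK KO replicate 29 had a median of 0.27, and that to ENK KO replicate 1 a median of 0.10. For 23 of the 42 genes the difference of the group means was larger than the whole WT range, against 11.7% of all genes.

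Sex and age could be matched only in part. ENK KO replicate 29 against the mean of the WT males of its age had a median difference of 0.44, with 36 of 42 genes above both (24.4% of all genes). ENK KO replicate 1 against WT replicate 7, both female but 2 and 7 months old, had a median of 0.32, with 38 genes higher (38.7% of all genes). Age and sex coincide within the ENK KO groups, where every female is 2 months old. All thymus males were 7 months old. In the spleen the WT males were 7 months old too, but of the ENK KO males only replicate 31 was. ENK KO replicates 25 and 28 were 9 and 6 months old.

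**Figure D3:**
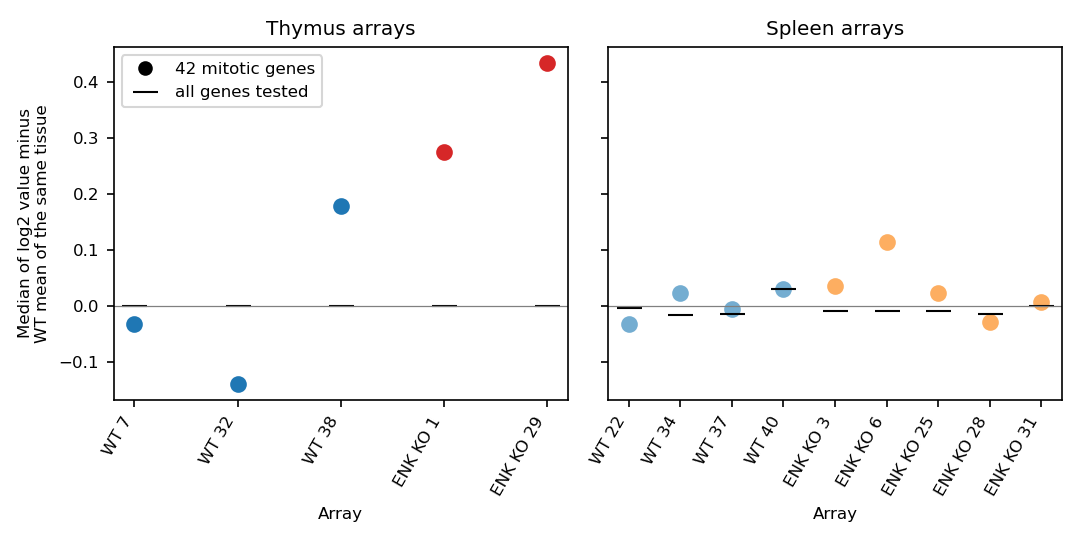
Median over the 42 measured mitotic genes of the log2 value minus the WT mean of the same tissue (vertical axis), for each array (horizontal axis). Points are the mitotic genes and black dashes all genes tested. Thymus medians run from -0.14 (WT replicate 32) to 0.43 (ENK KO replicate 29), and spleen medians from -0.03 to 0.11.

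Values of other gene lists are given beside this difference. The mean of 12 immediate early and heat shock genes, which respond quickly to stimulation and stress, was 9.14 to 9.50 on the WT and 9.72 to 9.98 on the ENK KO arrays. The groups did not overlap. Of these 12, 10 lay above 0 (44.9% of all genes) and 0 passed the test. Differences ran from -0.19 to 1.82, with Hsp90aa1 at 0.83. The mean of 16 markers of the earlier double-negative stage was 8.31 to 8.37 in WT and 8.43 to 8.49 in ENK KO. These list means did not overlap either. Of the 13 tested, 9 lay above 0 (44.9% of all genes) and 4 below, 0 passed and the median was 0.04. Differences ran from -0.18 to 0.69, with Ptcra, the pre-T cell receptor alpha chain, at 0.47. The CD4+CD8+ stage markers overlapped, at 12.23 to 12.28 in WT and 12.25 to 12.29 in ENK KO. B cell markers were at 6.53 to 6.62 and 6.53 to 6.60, with 7 of 10 under 6.76 on every array in both groups, and myeloid markers were at 6.33 to 6.40 and 6.35 to 6.42, with 10 of 14 under it. NK cell markers were at 5.84 to 5.94 and 5.88 to 5.95, erythroid markers at 6.57 to 6.65 and 6.61 to 6.62, stromal markers at 7.32 to 7.38 and 7.33 to 7.37, and CD4 and regulatory T cell markers at 8.06 to 8.18 and 8.12 to 8.20. The part of any of these lists in the mitotic gene difference was not tested.

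Genes of the neighbouring pathways were taken from lists, and the lists were chosen with earlier results of these data known. Of 43 tested genes of a second list of mitotic genes, 39 lay above 0 in the thymus (44.9% of all genes), with a median of 0.15. At an unadjusted p under 0.05, 16 of them were higher (1.8% of all genes), and 0 passed the test. Its smallest p belonged to Cdca5 (sororin, which protects cohesion) at 0.37 and Kif18b at 0.33. Of 36 DNA replication genes, 32 lay above 0, 13 were higher at an unadjusted p under 0.05, 0 passed and the median was 0.18. Among them Rrm2, the ribonucleotide reductase subunit, stood at 0.79, Pola1 (DNA polymerase alpha) at 0.52 and Tyms (thymidylate synthase) at 0.49. Of 17 G1 cyclins, CDKs and CDK inhibitors, 10 lay above 0, 1 was higher at an unadjusted p under 0.05, 0 passed, and the median was 0.04.

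In the spleen the genotypes lay close together. limma called 0 of the 40 mitotic genes between ENK KO and WT, and 0.00733% of all genes (1 gene, lower). At an unadjusted p under 0.05, 3 were higher (3.45% of all genes) and 0 lower (4.93%). No gene lay lower in ENK KO without overlap (0.814% of all genes do). Of the 40, 28 differences were above 0, against 45% of all genes, and the median was 0.03, against -0.01 over all genes. Without replicate 28, 36 of the 40 lay above 0, against 46.1% of all genes, and the exceptions were Aspm, Bub1b, Ccna2 and Melk. The median was then 0.06. At an unadjusted p under 0.05, 2 of the 40 were higher, Plk1 and Prc1, a share similar to the 586 of all 13610 genes. Smc4 had an unadjusted limma p of 0.067. limma again called 0 of the 40, and 2 of the 13610 genes. These counts describe low values for most genes, because 26 of the 42 lie under 6.76 in both spleen groups.

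Plk1 was the only gene whose spleen groups did not overlap (0.894% of all genes are higher without overlap, and 2.13% without replicate 28, where Plk1 was again the single one). It was 7.54, 7.50, 7.48 and 7.41 in WT (replicates 22, 34, 37 and 40) and 7.65, 7.67, 7.80, 7.61 and 7.56 in ENK KO (replicates 3, 6, 25, 28 and 31), a difference of 0.17 (SE 0.069, limma adjusted p = 0.595). Prc1 was 6.17, 6.30, 6.30 and 6.07 in WT and 6.30, 6.43, 6.30, 6.59 and 6.45 in ENK KO (0.20, SE 0.069, limma adjusted p = 0.595); 3 of its ENK KO arrays lay above every WT array. Smc4 was 11.40, 11.30, 11.21 and 11.17 in WT and 11.56, 11.40, 11.24, 11.42 and 11.45 in ENK KO (0.15, SE 0.067, limma adjusted p = 0.595). None of the 3 passed the test, and Smc4 overlapped. Ncapg2 had the largest positive difference, 0.25, with 5.97, 5.97, 5.64 and 5.60 in WT and 6.00, 5.99, 5.97, 6.04 and 6.22 in ENK KO, all under 6.76. Ncapg was 5.90, 5.92, 5.90 and 5.74 in WT and 5.97, 6.20, 5.96, 5.92 and 5.85 in ENK KO, a difference of 0.12 with overlap and also under 6.76. Ect2 was 7.35, 7.60, 7.65 and 7.61 in WT and 7.64, 7.68, 7.69, 7.52 and 7.79 in ENK KO (0.11). Its groups overlapped, as did those of Kif2c. Kif2c was 6.08, 5.98, 6.04 and 6.14 in WT and 6.09, 6.29, 6.08, 6.08 and 6.08 in ENK KO (0.07).

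Racgap1 had the largest difference in either direction, and it rested on 1 array. It was 9.73, 9.83, 10.24 and 9.64 in WT and 9.82, 10.06, 10.21, 7.05 and 9.81 in ENK KO, and the value 7.05 belongs to replicate 28, which carries Cd4 and Foxp3 in place of Cd8a. The difference was -0.47 (SE 0.51, limma adjusted p = 0.800) with that array and 0.11 (SE 0.14, limma adjusted p = 0.803) without it. Its partner Kif23 was also lowest there, at 7.32, while every other spleen array was at 7.73 or above, and differed by 0.10 without it. Among the other arrays, ENK KO replicate 6, a 2-month-old female, was the highest of the 9 for 13 genes (9.28% of all genes have their highest value there), with a median of 0.11 above the WT mean.

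Between the populations, the mitotic genes were lower in spleen CD8+ cells than in thymus CD4+CD8+ cells in both genotypes, Racgap1 excepted. In WT, all 4 spleen arrays lay below all 3 thymus arrays for 39 of the 42 genes, against 39.2% of all genes, and above them for Racgap1 (32.6% of all genes are higher without overlap). In ENK KO the spleen arrays lay below for 41 of 42, against 40.7% of all genes, and above for 0, against 29.9%. Without replicate 28 they lay below for 41 (42.6% of all genes) and above for 1, Racgap1 (32% of all genes). The limma fit called 39 of the 40 tested lower in WT (38.2% of all genes) and 1 higher (30.5%), and 39 lower in ENK KO (37.1%) and 0 higher (27.4%). Without replicate 28 it called Racgap1 higher in ENK KO as well. That made 40 of 40 called in either direction, against 8864 of all 13610 genes. These calls carry the limit that the tissues may have been normalized separately. Quantile normalization of the deposited values left the direction of the 5 largest and the 5 smallest measured drops and of Racgap1 in place. The median difference of all genes was -0.04 in WT and -0.06 in ENK KO, against -1.35 and -1.62 for the mitotic genes. Since 22 of the 40 passed the filter only through thymus arrays, the counts over all 42 are the ones to read.

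Kif11 stood at 9.20, 8.99 and 9.73 in WT thymus and 6.10, 6.18, 6.07 and 6.11 in WT spleen, a measured difference of -3.19 on the log2 scale. All of its spleen values lie under 6.76, as do those of Nusap1 and most of Ccna2, so the sizes of these drops are limited by the low end of the scale and no order is read from them. Ccnb2 was 7.44, 7.67, 7.86 and 7.70 in WT spleen, -2.92 from thymus, and Mki67 was 6.96, 7.12, 7.09 and 7.17, -2.89 from thymus. Nusap1 was 5.87, 5.89, 5.87 and 5.92 in WT spleen (-2.81), and Ccna2 was 6.56, 6.63, 6.86 and 6.72 (-2.73). None of these 5 genes had a spleen array within the range of its thymus arrays.

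Other genes differed little between the tissues. Kif20b was 7.04, 6.91, 7.12 and 7.31 in WT spleen and 7.29, 7.44 and 7.50 in WT thymus, a difference of -0.31 with overlap. Kif18a was 6.95, 7.07, 7.05 and 6.86 in WT spleen and 7.05, 7.52 and 7.82 in WT thymus (-0.48), also with overlap. Smc4, bright in both tissues, was 11.40, 11.30, 11.21 and 11.17 in WT spleen and 11.78, 11.63 and 11.72 in WT thymus (-0.44). Melk and Ndc80 also had small measured differences, but at values that bound them. Melk was 6.39, 6.39, 6.39 and 6.46 in WT spleen and 6.67, 6.79 and 6.80 in WT thymus (-0.34), and Ndc80 was 6.69, 6.80, 6.35 and 6.71 against 6.84, 7.16 and 7.16 (-0.41). Smc4 and Smc2 (-0.75) are core ATPases of both condensins, while the condensin I subunit Ncaph, which pairs with them, fell from 9.05, 9.60 and 9.60 to 6.82, 6.79, 6.76 and 6.95 (-2.59).

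Racgap1 was the reverse, at 8.20, 7.92 and 8.20 in WT thymus and 9.73, 9.83, 10.24 and 9.64 in WT spleen, 3.37-fold higher (1.75). In ENK KO it was 8.24 and 8.68 in thymus and 9.81 to 10.21 on the 4 spleen arrays other than replicate 28, a difference of 0.93 with replicate 28 and 1.51 without it. Its partners in cytokinesis went the other way in WT: Kif23 by -0.98, Ect2 by -2.06 and Anln by -1.78.

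**Figure D4:**
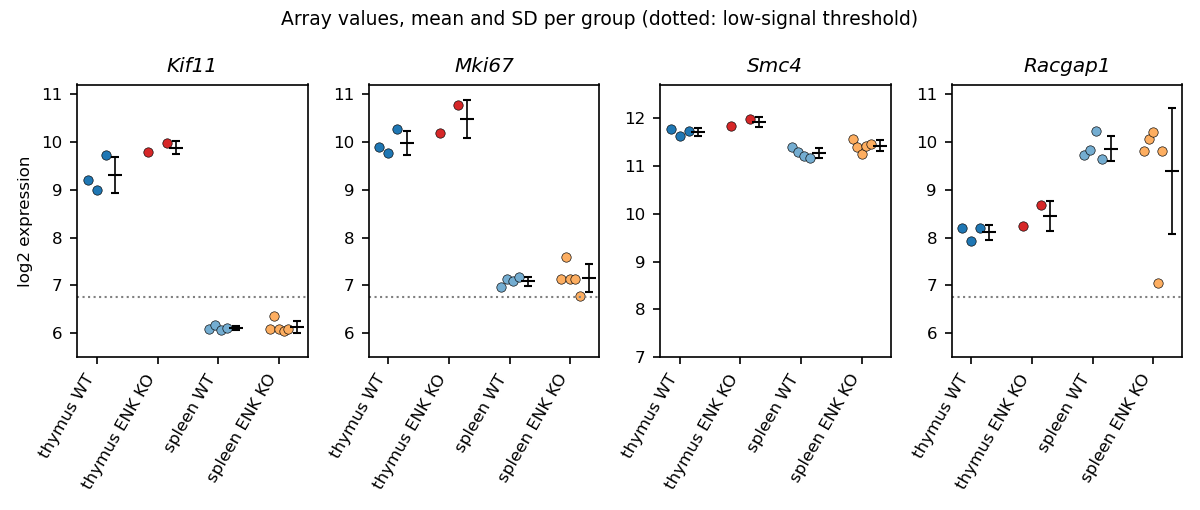
Log2 values of Kif11, Mki67, Smc4 and Racgap1 (vertical axes) in the 4 groups (horizontal axes). Points are arrays, bars the group mean and SD, and the dotted line the low-signal value 6.76, which lies below the Smc4 axis. Kif11 falls below the line in spleen, Mki67 has a WT spleen mean of 7.09, Smc4 has a lowest value of 11.17, and Racgap1 rises in spleen except for ENK KO replicate 28 at 7.05.

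Under 6.76, where 40% of all values of the table lie, a low value gives little more than a bound. In the spleen 26 of the 42 genes had both group means under it, 24 of them on each of the 9 arrays. They are Ccna2, Ttk, Bub1, Bub1b, Melk, Birc5, Kif11, Kif20a, Kif2c, Kif4, Kif15, Cenpe, Cenpf, Ndc80, Nuf2, Tpx2, Dlgap5, Ckap2, Ckap2l, Nusap1, Aspm, Hmmr, Prc1, Ncapg, Ncapg2 and Anln. For 15 genes both means were at or above it: Cdk1, Ccnb2, Plk1, Aurka, Aurkb, Cdc20, Kif20b, Kif18a, Ncaph, Smc2, Smc4, Mki67, Racgap1, Ect2 and Kif23. Top2a lay on the value itself, with a mean of 6.65 ± 0.076 (SD, n = 4) in WT and 6.76 ± 0.24 (SD, n = 5) in ENK KO. Just inside were Dlgap5, with means of 6.71 and 6.74, and Ndc80, with 6.64 and 6.73, and just outside was Ncaph, with 6.83 and 6.91. Every kinetochore gene and every spindle protein of the set was under it in spleen, whereas both Aurora kinases and Plk1 were above it. With the 30th percentile as the value the count was 18, and with the 50th it was 32.

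The genotype difference itself was compared between the tissues by the interaction of the limma fit, the spleen effect minus the thymus effect. It called 0 of the 40 genes and 0.00733% of all genes (1 gene, lower). At an unadjusted p under 0.05, 19 of the 40 had a lower effect in spleen than in thymus, against 1.73% of all genes, and 0 a higher one, against 1.26%. Of these 19, 17 have both spleen means under 6.76, where a genotype difference in spleen could hardly be measured (the other 2 are Cdk1 and Top2a). The median was -0.34, against -0.01 over all genes. Without spleen ENK KO replicate 28 the median was -0.30 and the count 18. Without thymus ENK KO replicate 29 the median was -0.21 and the count 8, and without thymus WT replicate 32 the count was 10.

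For the neighbouring lists the WT tissue difference is read against the all-gene shares of 38.2% called lower and 30.5% called higher. Of 43 genes of the second mitotic list, 35 were called lower and 1 higher, 3 lay above 0, and the median was -0.69. Of the 48 genes of this list on the array, 20 lay under 6.76 on every WT spleen array. A gene that passed the filter only through thymus arrays could hardly be called other than lower, which limits this count. Knl1, the kinetochore scaffold, stood at -2.84 and Sgo1 (shugoshin) at -0.98. The 1 called higher was Cdc25b, a CDK1-activating phosphatase. Of 36 DNA replication genes, 20 were called lower and 1, the licensing factor Cdt1, higher. Of these 36, 6 lay above 0, and the median was -0.45. Of 17 G1 genes, 10 were called lower and 4 higher, and 7 lay above 0. The higher ones included the D-type cyclin Ccnd2, which was 5.17 higher in spleen, while Ccnd3 was -1.65 and Cdk2 -1.94. Cdc25b and Cdt1 are named because each was the single gene of its list called higher, which was seen from their values.

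The 42 genes lie on 17 chromosomes, with 8 on chromosome 2 and 5 on chromosome 9. Between pairs of thymus arrays a median of 2.38% of the 42 had identical values, against 22.1% of all genes tested.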

How the data were processed

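Values were log2 expression per probe set, made with RMA and deposited by the authors, per the submitters' processing notes. The sources used here do not give the software version, the genome build or joint or separate normalization of the tissues. Of 28213 probe sets, 21640 had 1 symbol in the platform annotation, 1321 several and 5252 none in the table used. The number of arrays limits the precision.

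One limma model (3.58.1, R 4.3.3) took the 14 arrays, with 1 coefficient for each group and variances following the mean level (eBayes with a trend). Benjamini-Hochberg adjustment ran over 13641 genes. Contrasts were the genotype difference within each tissue, the tissue difference within each genotype, and the interaction. The steps were tested on simulated data.

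The 43 genes, the 12 other lists (214 genes, 200 found) and the roles were chosen with earlier results of these data known. Array values are given for the 8 genes with the smallest p in each genotype comparison, the 5 largest and 5 smallest WT tissue differences, and further members. Alternatives changed the filter, normalization, probe set rule, variance model, weights, covariates and samples. Promoters came from RefSeq (GRCm38.p6) and had no entry for 6 genes.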

Additional observations from a re-analysis of the deposited data

Results flagged for a closer look

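In groups of 4 or more arrays, 17 single values lay far from the rest of their group, out of 86 groups tested; chance alone marks about 1 group in 20. Only the spleen groups are that large, so no thymus value could be among them. The groups of 12 of the 17 values hold identical values, where the rate by chance is not known.

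Spleen ENK KO replicate 28, the array that carries Cd4 in place of Cd8a, was low for Racgap1 (7.05), Kif23 (7.32), Aurka (7.37) and Ckap2l (6.26). Spleen ENK KO replicate 6, from a 2-month-old female, was high for Cdk1 (7.43), Kif11 (6.36), Kif2c (6.29) and Nusap1 (6.19). Spleen ENK KO replicate 3, the other 2-month-old female, was high for Kif4 (5.33) and Cenpe (5.68) and low for Hmmr (3.94), and spleen ENK KO replicate 31 was high for Ncapg2 (6.22).

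In WT spleen, replicate 34 was high for Aurkb (7.43), replicate 40 was high for Melk (6.46) and low for Ncapg (5.74), replicate 37 was high for Hmmr (4.08), and replicate 22 was low for Anln (5.45).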

How the results depend on the processing

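No paired analysis was possible because no replicate number occurs in more than 1 group. No thymus gene was called with the settings of the report; array weights called 1 (Dlgap5, 0.43, limma adjusted p = 0.0434), and leaving out 1 array called 0 to 4. The 4 came without thymus WT replicate 38: Ckap2, Ckap2l, Kif11 and Nusap1 (limma adjusted p = 0.0331, 0.0265, 0.0183 and 0.00943). The thymus median ran from 0.27 to 0.43 with 1 array left out and from 0.35 to 0.44 otherwise. The count at an unadjusted p under 0.05 ran from 14 to 28 and from 11 (each tissue alone) to 30. Genes called over the whole table ran from 0 to 24 in the thymus and from 0 to 3 in the spleen. The Racgap1 spleen difference ran from -0.68 to 0.11 with 1 array left out and turned positive without ENK KO replicate 28. With the filter at the 60th percentile 25 of the genes were left, so WT spleen against thymus called 25 with a median of -1.51, and ENK KO called 24 with a median of -2.05. Leaving out 1 array, these calls ran from 38 to 40 and from 37 to 40, and the interaction median from -0.38 to -0.21, the latter without thymus ENK KO replicate 29. In the WT tissue comparison, Racgap1 lost its call without thymus WT replicate 32 and with males only, and Kif20b and Kif18a without thymus WT replicate 38. Where the thymus ENK KO group was left with 1 array, that array was assumed to vary like the other groups. The cause of these changes, other than the smaller number of genes under the stricter filter, was not tested. Signal limits the spleen, where most of the genes are dim, and 2 arrays limit the thymus ENK KO group.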
